A study of Mus musculus with 12 samples.

Results

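The nuclear genes for the proteins of the mitochondrial ribosome were examined in gut epithelial cells of mice lacking one copy of the large isoform of *Chd8*. They were taken as every gene of the deposited table whose symbol is Mrpl or Mrps followed by a digit. This gave 76 of the 14244 genes in the table, 47 with an L in the symbol for the large subunit and 29 with an S for the small subunit. The mice were 8-week-old male C57BL/6 littermates, 5 wild type (WT) and 7 *Chd8L*+/-, and a separate poly(A) RNA library was made for each mouse. The deletion removed exons of the large *Chd8* isoform on one allele in the whole body, so the mice are not a model of loss in the gut epithelium alone, and the cells were stripped from the gut wall with EDTA and DTT rather than sorted. The values are normalised read counts, the reads on a gene divided by its library's size factor.

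The mitochondrial ribosome, or mitoribosome, translates the few proteins that mitochondrial DNA encodes, all of them membrane subunits of oxidative phosphorylation. Its RNAs come from mitochondrial DNA, whereas all of its proteins are encoded in the nucleus, made in the cytosol and imported, together with the synthetases, assembly factors and translation factors that serve it. Some of its proteins descend from bacterial ribosomal proteins and others arose in mitochondria. The absorptive enterocytes of the gut are rich in mitochondria, and the dividing cells of the crypts build new ones at each division.

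In the grouping used here, 46 of the 76 genes encode members of bacterial protein families, with *Mrps18a*, *Mrps18b* and *Mrps18c* all placed among them. Mitochondria-specific proteins are encoded by 29 genes. The remaining gene, *Mrps36*, carries a ribosomal symbol but is now known as a subunit of the 2-oxoglutarate dehydrogenase complex. *Mrps30* and *Mrps18a* carry an S although their proteins sit in the large subunit. The genes lie on 17 chromosomes, with up to 11 on 1 chromosome (chromosome 11). A protein-coding gene on the opposite strand starts within 1 kb of 33 of the 76 genes (43.4%), compared with 15.8% of the 12441 protein-coding genes tested and 40.3% of the 77 nuclear genes for subunits of oxidative phosphorylation. Such head-to-head starts were more frequent among large subunit genes (51.1% of 47) than among small subunit genes (31.0% of 29), a description with no test.

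RefSeq promoter windows on GRCm38.p6, from 250 bases before the start site to 50 after it, were found for 67 of the 76 genes, with 73 windows in all because some genes have several starts. The motifs searched on both strands were ETS (CCGGAAG), YY1 (AAGATGGC), NRF1 core (GCATGCGC), E-box (CACGTG), GC box (GGGGCGGGG) and TATA box (TATAAA). The ETS letters were found in 32.9% of the member windows, 16.6% of the windows of all genes tested and 8.86% of all windows. The YY1 letters were found in 16.4%, 4.24% and 2.75%, and the NRF1 core in 9.59%, 4.87% and 2.71%, in the same order. The E-box was in 9.59%, 9.65% and 7.15%, the GC box in 20.5%, 20.5% and 11.4%, and the TATA box in 6.85%, 7.72% and 13.6%. A match is a stretch of letters and not a shown binding site. The promoters of 5 genes are given because they belong to the gene with the highest fold change (*Mrps27*), the gene with the lowest (*Mrps21*), and the paralogs for protein S18 (*Mrps18a*, *Mrps18b* and *Mrps18c*). Each runs 5′ to 3′ on the strand of its gene from 250 bases before the start site to 30 after it, and capitals mark the motifs. The windows lie at chr13:99344536-99344815 (plus strand, *Mrps27*), chr17:35916411-35916690 (minus strand, *Mrps18b*), chr17:46110754-46111033 (plus strand, *Mrps18a*), chr5:100798509-100798788 (plus strand, *Mrps18c*) and chr3:95871485-95871764 (minus strand, *Mrps21*) of GRCm38.
Mrps27: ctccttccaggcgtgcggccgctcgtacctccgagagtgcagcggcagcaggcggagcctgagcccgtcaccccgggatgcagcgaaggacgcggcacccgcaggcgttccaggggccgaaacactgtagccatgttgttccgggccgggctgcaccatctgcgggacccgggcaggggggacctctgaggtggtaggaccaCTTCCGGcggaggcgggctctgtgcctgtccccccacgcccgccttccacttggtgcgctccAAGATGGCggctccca
Mrps18b: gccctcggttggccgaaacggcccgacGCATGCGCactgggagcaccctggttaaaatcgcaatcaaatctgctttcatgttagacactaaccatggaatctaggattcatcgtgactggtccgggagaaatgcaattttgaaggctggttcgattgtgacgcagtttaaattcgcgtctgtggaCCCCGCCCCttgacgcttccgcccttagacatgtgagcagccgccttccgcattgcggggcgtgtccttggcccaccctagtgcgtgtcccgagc
Mrps18a: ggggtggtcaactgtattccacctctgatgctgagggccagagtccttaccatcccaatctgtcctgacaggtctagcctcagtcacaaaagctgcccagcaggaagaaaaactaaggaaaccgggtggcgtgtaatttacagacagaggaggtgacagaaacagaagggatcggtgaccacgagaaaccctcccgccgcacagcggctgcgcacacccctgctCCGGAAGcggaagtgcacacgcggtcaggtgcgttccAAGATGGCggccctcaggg
Mrps18c: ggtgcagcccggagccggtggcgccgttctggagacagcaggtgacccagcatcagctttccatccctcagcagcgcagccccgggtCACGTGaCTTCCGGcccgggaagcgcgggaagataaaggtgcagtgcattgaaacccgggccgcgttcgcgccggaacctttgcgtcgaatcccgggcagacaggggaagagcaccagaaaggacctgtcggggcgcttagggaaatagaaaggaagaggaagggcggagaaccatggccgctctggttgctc
Mrps21: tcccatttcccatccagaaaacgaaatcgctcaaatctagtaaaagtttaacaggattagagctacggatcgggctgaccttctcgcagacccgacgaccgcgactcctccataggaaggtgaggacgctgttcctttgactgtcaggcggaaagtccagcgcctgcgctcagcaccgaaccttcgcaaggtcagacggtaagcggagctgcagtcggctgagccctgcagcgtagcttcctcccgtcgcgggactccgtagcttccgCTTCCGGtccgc
In these windows *Mrps27* and *Mrps18a* each hold an ETS and then a YY1 match, the latter just after the start site. *Mrps18b* holds an NRF1 core match and a GC box, *Mrps18c* an E-box and an ETS match side by side, and *Mrps21* a single ETS match. The searched window of *Mrps18b* also holds an NRF1 core match from base 29 and an ETS match from base 44. Both reach past the printed end, and both enter the counts of genes by motif.

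Between 15691662 and 20761315 reads per library were recovered from the deposited values. *Chd8* itself, counted over the whole gene on chromosome 14 (52198151 to 52257780, minus strand), had 953 ± 85.5 (SD of 5 mice) normalised counts in WT and 1297 ± 123 (SD of 7 mice) in *Chd8L*+/- libraries. All 7 *Chd8L*+/- libraries (1084 to 1483) lay above all 5 WT libraries (823 to 1050), where 0.515% of all genes tested had groups apart. The *Chd8* log2 fold change was 0.44 (SE 0.10, adjusted p = 0.121 from limma). By PCR the paper measured more RNA of an exon outside the deletion and less of the deleted exons. The gene count cannot separate the deleted exons from the others, so it does not show the deletion or check the labels. Markers of epithelium were abundant in every library (*Epcam*, *Krt8*, *Krt18*, *Krt19*, *Cdh1*, *Vil1* and *Lgals4* summed to between 161424 and 266603 normalised counts). Lists for lymphocytes, myeloid cells, stroma and erythroid cells summed to at most 8913, 4158, 2393 and 5369, each in a *Chd8L*+/- library. The highest WT sums of these lists were 8759, 3319, 647 and 2774. Along the first principal component, with 39.7% of the variance between libraries, WT replicate 2 (41.0) fell within the *Chd8L*+/- range of 0.26 to 42.7 and apart from the other 4 WT libraries (-67.5 to -26.2). Calls that rest on that library are given with and without it. It was set apart on the expression values themselves, so leaving it out draws the groups apart by construction. Each adjusted p without it is therefore a description and not evidence for a difference between genotypes.

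No gene of the 76 passed the test between genotypes. In limma on log2(normalised count + 1), 0 of the 76 genes reached an adjusted p of 0.05 or less, where 3 of the 12808 genes tested (0.0234%) did. All 76 genes passed the filter on low values. Their log2 fold changes (*Chd8L*+/- minus WT) ran from -0.49 for *Mrps21* to 0.88 for *Mrps27*, with a median of 0.066 against 0.014 for all genes tested, and 49 genes (64.5%) lay above 0 where 51.4% of all genes did. At an unadjusted p of 0.05 or below, 8 of the 76 were higher (10.5%, background 12.5%) and 5 were lower (6.58%, background 11.8%). On the recovered reads edgeR and DESeq2 also left 0 of the 76 past an adjusted p of 0.05, against 0.039% and 6.44% of the genes they tested. At an unadjusted p of 0.05 or below edgeR gave 6 higher (background 10%) and 5 lower (background 12.3%), and DESeq2 gave 6 higher (background 11.1%) and 6 lower (background 12.7%). In 0 of the 76 genes did the 2 groups of libraries fail to overlap, where 0.515% of all genes tested had groups apart. The smallest adjusted p among the 76 was 0.121. In bulk RNA, fewer cells of a type and less RNA per cell cannot be told apart, here and in every comparison that follows.

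The medians of both subunits lay near 0. The 47 large subunit genes had a median fold change (log2) of 0.051, with 30 above 0 and 17 below. The 29 small subunit genes had a median of 0.13, with 19 above 0 and 10 below. When *Mrps30* and *Mrps18a* were counted with the large subunit and *Mrps36* was left out, as their proteins require, the medians were 0.048 over 49 genes and 0.15 over 26 genes. The large minus small difference of medians was -0.076 by symbol and turned positive, at 0.016, 0.0078 and 0.0052, under quantile normalization, edgeR and DESeq2. With the subunits assigned by structure it was -0.10 and remained below 0 under these 3 alternatives, at -0.049, -0.057 and -0.058. Genes of bacterial families had a median of 0.11 (46 genes, 29 above 0) and mitochondria-specific genes one of 0.028 (29 genes, 20 above 0).

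The spread between libraries of 1 genotype was larger than the difference between genotypes. The mean log2(normalised count + 1) over the large subunit genes was 8.67, 9.01, 8.61, 8.59 and 9.05 in WT replicates 1 to 5, and in the 7 *Chd8L*+/- libraries its lowest, median and highest values were 8.53, 8.85 and 9.25. Over the small subunit genes the WT values were 8.29, 8.69, 8.16, 8.16 and 8.62, and the *Chd8L*+/- values 8.18, 8.50 and 8.90. The groups overlapped on both measures. *Chd8L*+/- replicate 6 was the highest of all libraries on both, and WT replicates 2 and 5 lay well above the other 3 WT libraries. The difference of the 2 means within a library was 0.40 ± 0.057 (SD of 5 mice) in WT and 0.35 ± 0.044 (SD of 7 mice) in *Chd8L*+/- libraries. The 76 genes took 0.151% to 0.229% of the recovered reads in WT and 0.165% to 0.286% in *Chd8L*+/- libraries. Without *Chd8L*+/- replicate 6 the median log2 fold change of the 76 genes was -0.0033 (37 above 0, 39 below), with -0.0057 for the large and 0.075 for the small subunit. At an unadjusted p of 0.05 or below, 6 genes were then higher (background 11%) and 10 lower (background 11.1%).

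**Figure D1:**
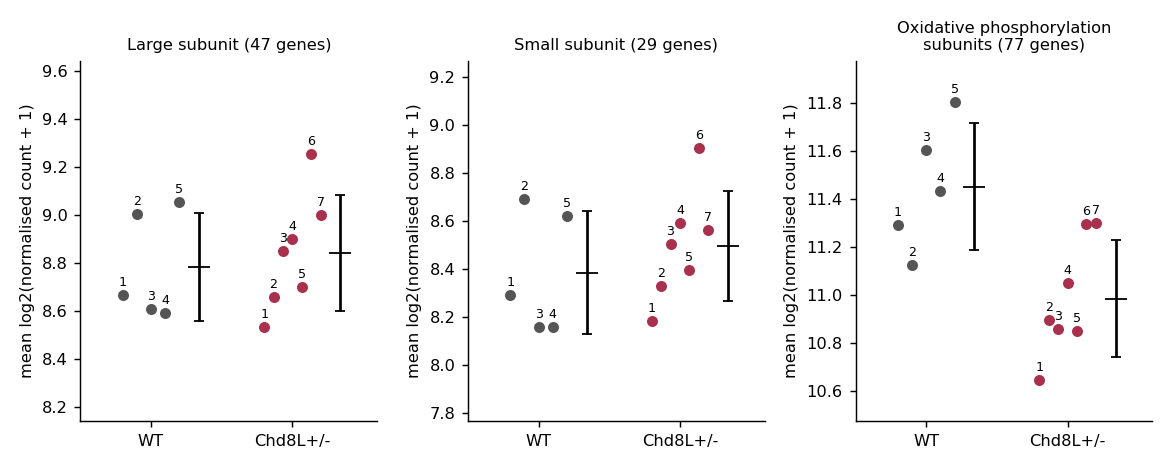
Mean log2(normalised count + 1) per library over the large subunit genes, the small subunit genes and the nuclear subunits of oxidative phosphorylation, with points numbered by replicate and a bar for the mean ± SD of each genotype. The y axes span the same range of log2 units but start at different levels. The genotypes overlap for both ribosomal subunits (8.59 to 9.05 against 8.53 to 9.25 for the large subunit), whereas 5 of the 7 Chd8L+/- libraries lie below every WT library for oxidative phosphorylation.

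The spread within the family was wide compared with its median. Among the small subunit genes, those with the highest fold changes were *Mrps27*, *Mrps22*, *Mrps18b* and *Mrps2*. *Mrps27*, an RNA-binding pentatricopeptide repeat protein (chromosome 13, 99344786 to 99415562, plus strand), had 124, 270, 79.7, 96.2 and 155 normalised counts in WT replicates 1 to 5. In the *Chd8L*+/- libraries its lowest, median and highest values were 187, 226 and 380. The groups overlapped through WT replicate 2 only, since the other 4 WT libraries lay below all 7 *Chd8L*+/- libraries. The log2 fold change was 0.88 (SE 0.27, adjusted p = 0.121 from limma) and 1.14 (adjusted p = 0.00476) without WT replicate 2. An annotated transcript on the opposite strand, *6430562O15Rik*, overlaps *Mrps27*, and *Ptcd2* starts 81 bases away on that strand.

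*Mrps2*, a small-subunit protein of bacterial descent (chromosome 2, 28468066 to 28471178, plus strand), had 307, 459, 193, 203 and 228 normalised counts in WT and 348, 395 and 555 as the lowest, median and highest values in *Chd8L*+/- libraries. Again WT replicate 2 alone lay within the *Chd8L*+/- range. Its log2 fold change was 0.65 (SE 0.20, adjusted p = 0.122), and 0.85 (adjusted p = 0.00415) without that library. *Mrps22* is a mitochondria-specific protein whose loss causes mitochondrial disease in humans, and it is named here because of its value. It had 183, 340, 112, 111 and 224 normalised counts in WT, and 225, 318 and 368 in *Chd8L*+/- libraries. The log2 fold change was 0.71 (SE 0.26, adjusted p = 0.139) and 0.94 (adjusted p = 0.00951) without WT replicate 2, and WT replicate 2 was again the one WT library inside the *Chd8L*+/- range.

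The 3 paralogs for protein S18 took different positions. *Mrps18b* (chromosome 17, 35910379 to 35916389, minus strand), whose protein is in the small subunit, had 109, 180, 75.6, 78.3 and 97.8 normalised counts in WT. Its *Chd8L*+/- values were 138, 157 and 219, giving a log2 fold change of 0.65 (SE 0.21, adjusted p = 0.124), or 0.85 (adjusted p = 0.00487) without WT replicate 2. *Mrps18c* (chromosome 5, 100798627 to 100804471, plus strand), the other small subunit form, had 425, 408, 592, 387 and 718 in WT and 315, 397 and 454 in *Chd8L*+/- libraries. Its log2 fold change was -0.35 (SE 0.16, adjusted p = 0.208), with 3 *Chd8L*+/- libraries below the lowest WT library. *Mrps18a* (chromosome 17, 46110986 to 46128910, plus strand), the form in the large subunit, had 320, 359, 307, 356 and 395 in WT and 264, 354 and 499 in *Chd8L*+/- libraries. Its log2 fold change was -0.0076 (SE 0.15, adjusted p = 0.981), and its direction changed with the scaling and with the libraries used. The ratio of the normalised counts of *Mrps18b* to *Mrps18c*, which compares libraries and not the amounts of the 2 RNAs, was 0.233 ± 0.127 (SD of 5 mice) in WT and 0.423 ± 0.0655 (SD of 7 mice) in *Chd8L*+/- libraries. It was 0.440 in WT replicate 2, within the *Chd8L*+/- range of 0.340 to 0.501. Among the promoters printed above, an NRF1 core and a GC box stood only in the *Mrps18b* window. *Gm16279* overlaps *Mrps18b* and *Rsph9* overlaps *Mrps18a* on the opposite strand, *Gm43511* overlaps *Mrps18c* on its own strand, and the counting may have split reads between them.

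In the large subunit the highest fold changes belonged to *Mrpl38*, *Mrpl37*, *Mrpl19* and *Mrpl16*. *Mrpl38* (chromosome 11, 116131817 to 116138868, minus strand), a mitochondria-specific protein of the central protuberance, had 345, 516, 200, 280 and 300 normalised counts in WT and 370, 410 and 816 in *Chd8L*+/- libraries. WT replicate 2 lay inside the *Chd8L*+/- range and the other 4 WT libraries lay below it. The log2 fold change was 0.59 (SE 0.23, adjusted p = 0.155), and 0.77 (adjusted p = 0.0191) without it. *Mrpl16* (chromosome 19, 11770391 to 11774960, plus strand), a protein of bacterial descent near the peptidyl transferase centre, averaged 257 ± 47.5 (SD of 5 mice) in WT and 344 ± 81.0 (SD of 7 mice), giving a log2 fold change of 0.41 (SE 0.17, adjusted p = 0.161). *Mrpl19* (chromosome 6, 81957851 to 81965958, minus strand), which lies at the interface of the subunits, averaged 250 ± 104 (SD of 5 mice) in WT and 339 ± 55.7 (SD of 7 mice), giving a log2 fold change of 0.51 (SE 0.21, adjusted p = 0.168), and *Gcfc2* overlaps it on the opposite strand. *Mrpl37*, a mitochondria-specific protein named here because of its value, had a log2 fold change of 0.58 (SE 0.24, adjusted p = 0.168). The log2 fold changes of *Mrpl37*, *Mrpl19* and *Mrpl16* without WT replicate 2 were 0.80, 0.72 and 0.50, with adjusted p of 0.0112, 0.00816 and 0.0353 from limma.

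The genes with the lowest fold changes have short transcripts, from 488 to 701 bases in the 5 described first. *Mrps21* (chromosome 3, 95862634 to 95871519, minus strand), a small-subunit protein of bacterial descent, had 857, 793, 1226, 1111 and 1369 normalised counts in WT replicates 1 to 5. Its lowest, median and highest *Chd8L*+/- values were 579, 747 and 934. Of the 7 *Chd8L*+/- libraries, 5 lay below the lowest WT library, which was replicate 2. The log2 fold change was -0.49 (SE 0.16, adjusted p = 0.125), and -0.59 (adjusted p = 0.0156) without WT replicate 2. *Mrpl34* (chromosome 8, 71464959 to 71465747, plus strand), a large-subunit protein of bacterial descent, had 748, 703, 811, 833 and 851 in WT and 503, 535 and 887 in *Chd8L*+/- libraries. For it 6 *Chd8L*+/- libraries lay below every WT library and replicate 6 lay above every WT library. The log2 fold change was -0.40 (SE 0.14, adjusted p = 0.133), and -0.45 (adjusted p = 0.0432) without WT replicate 2.

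*Mrpl14* (chromosome 17, 45686322 to 45698495, plus strand), which faces the small subunit, had 326, 398, 451, 391 and 593 normalised counts in WT and 219, 310 and 399 in *Chd8L*+/- libraries. The log2 fold change was -0.47 (SE 0.17, adjusted p = 0.134), 5 *Chd8L*+/- libraries lay below the lowest WT library, and *Tmem63b* overlaps it on the opposite strand. *Mrpl54* (chromosome 10, 81264713 to 81266934, minus strand), a mitochondria-specific protein, averaged 533 ± 87.1 (SD of 5 mice) in WT and 415 ± 88.8 (SD of 7 mice), giving a log2 fold change of -0.37 (SE 0.17, adjusted p = 0.195). *Mrps36* (chromosome 13, 100735955 to 100744659, minus strand), the subunit of the 2-oxoglutarate dehydrogenase complex, averaged 721 ± 141 (SD of 5 mice) in WT and 528 ± 93.6 (SD of 7 mice), giving a log2 fold change of -0.45 (SE 0.15, adjusted p = 0.128). The annotation holds 3 processed copies of *Mrps36*, which could share its reads. *Mrpl43* (-0.29), *Mrpl51* (-0.20), *Mrps33* (-0.26) and *Mrps23* (-0.21) also had log2 fold changes below 0, with adjusted p from limma between 0.237 and 0.328. Without WT replicate 2 the log2 fold changes of *Mrps36*, *Mrpl54* and *Mrpl43* were -0.55, -0.48 and -0.39, with adjusted p of 0.0173, 0.0466 and 0.0433 from limma.

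**Figure D2:**
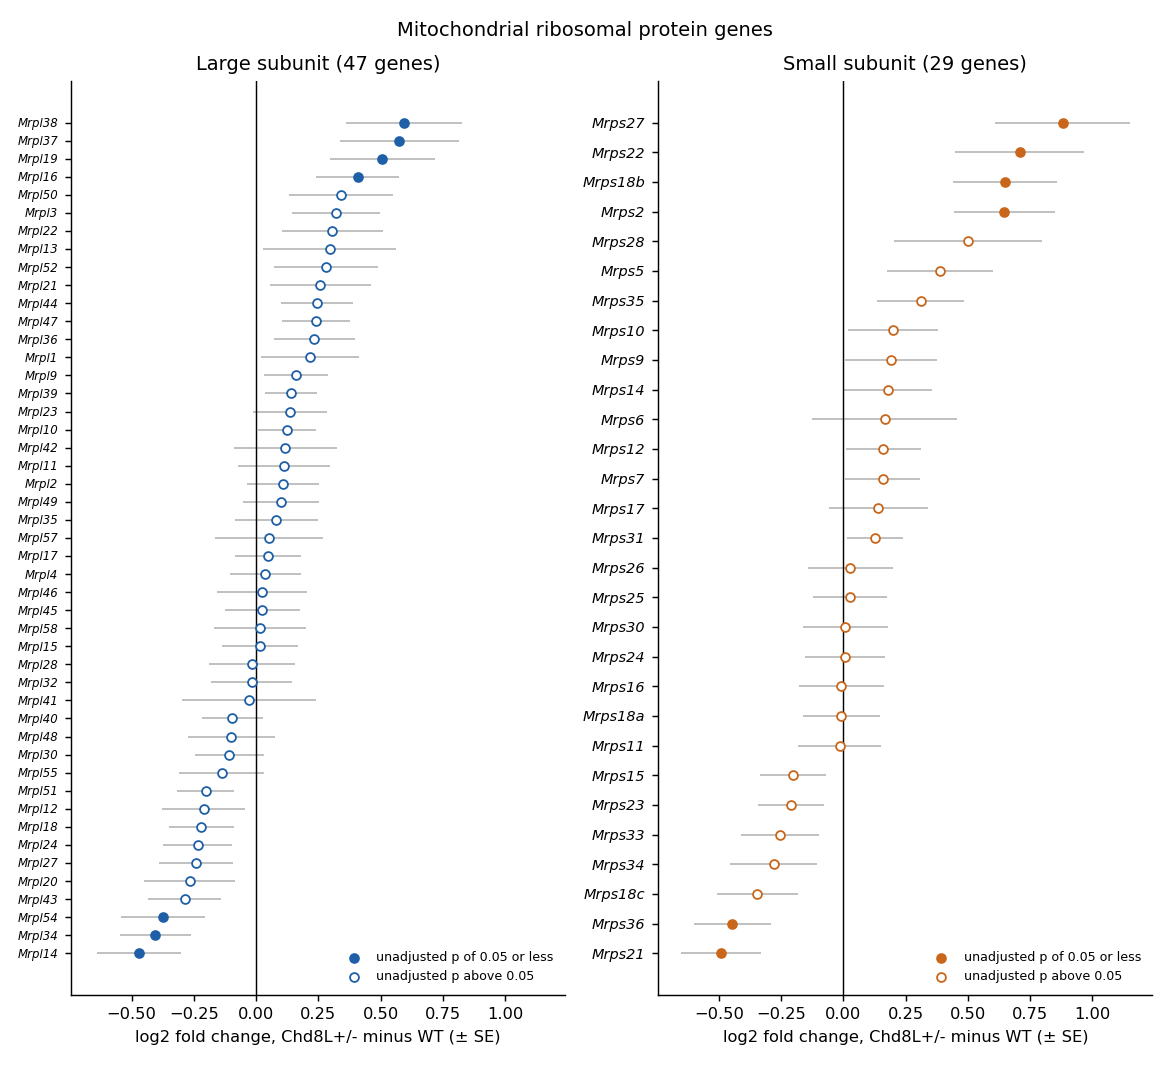
Log2 fold change of each of the 76 genes, sorted within the large and the small subunit, with bars for the standard error and filled points for an unadjusted p of 0.05 or below in limma. Fold changes run from -0.49 (Mrps21) to 0.88 (Mrps27), with 5 filled points on the lower side and 8 on the higher side.

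**Figure D3:**
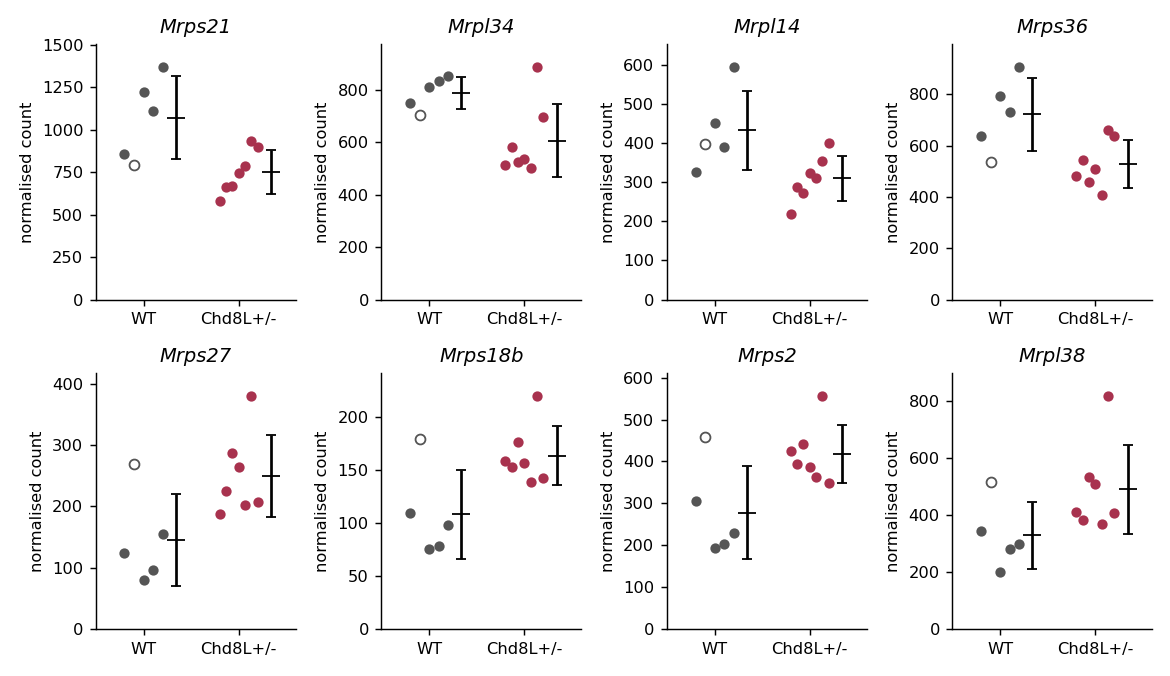
Normalised counts per library (linear axis from 0) for 4 genes with lower and 4 with higher fold changes, WT in grey and Chd8L+/- in red, with mean ± SD for 5 and 7 libraries. The open circle is WT replicate 2, which lies within the Chd8L+/- range for every gene shown. For Mrps27, Mrps18b, Mrps2 and Mrpl38 it is the only WT library in that range.

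WT replicate 2 decided how many of the 76 genes were called. Without it 3533 of the 12808 genes tested (27.6%) reached an adjusted p of 0.05 or less, and 14 of the 76 did (18.4%). The 5 lower genes were *Mrps21*, *Mrps36*, *Mrpl54*, *Mrpl34* and *Mrpl43* (6.58% of the 76, where 13.6% of all genes were lower). The 9 higher genes were *Mrps27*, *Mrps22*, *Mrps18b*, *Mrps2*, *Mrpl37*, *Mrpl38*, *Mrpl19*, *Mrps5* and *Mrpl16* (11.8% of the 76, where 14% of all genes were higher). The adjusted p of the 14 genes from limma lay between 0.00415 and 0.0466, and both shares lay under those of all genes tested. Because the library was left out for its values, these calls are not a test of the genotype. The median log2 fold change of the 76 genes was then 0.14, with 0.14 for the large and 0.19 for the small subunit. In the libraries labelled WT the sum of 10 proliferation markers (*Mki67*, *Top2a*, *Ccnb1*, *Cdk1*, *Pcna*, *Mcm2*, *Mcm5*, *Mcm6*, *Tyms* and *Rrm2*) ran from 3067 to 13394 normalised counts, and in *Chd8L*+/- libraries from 7674 to 13803. All 10 had a log2 fold change above 0 (median 0.96), with 9 at an unadjusted p of 0.05 or below where 12.5% of all genes were higher, and 0 past an adjusted p of 0.05 in limma. Without WT replicate 2 their median was 1.32 and 9 were past it, all higher, where 14% of all genes were past it and higher. Their part in the fold changes of the ribosomal protein genes was not tested.

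The 4 genes named for core functions had log2 fold changes between -0.21 and 0.16. *Mrpl12*, of the stalk that receives translation factors, had 1148 ± 230 (SD of 5 mice) normalised counts in WT and 999.5 ± 230 (SD of 7 mice) in *Chd8L*+/- libraries, giving a log2 fold change of -0.21 (SE 0.17). *Mrps12*, of the decoding centre, had 333 ± 56.0 (SD of 5 mice) and 373 ± 72.1 (SD of 7 mice), giving a log2 fold change of 0.16 (SE 0.15). *Mrpl45*, which ties the ribosome to the inner membrane, had 498 ± 47.6 (SD of 5 mice) and 515 ± 114 (SD of 7 mice), giving a log2 fold change of 0.024 (SE 0.15). *Mrps30* had 246 ± 53.2 (SD of 5 mice) and 247 ± 47.5 (SD of 7 mice), giving a log2 fold change of 0.0085 (SE 0.17). Adjusted p from limma lay between 0.446 and 0.981 for these 4 genes. *Mrpl58*, a peptidyl-tRNA hydrolase built into the large subunit, and *Mrpl57* had log2 fold changes of 0.017 (SE 0.18) and 0.051 (SE 0.22).

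Within the family, fold changes were lower for genes with short transcripts and with high levels. The 23 genes whose annotated transcript is under 1 kb had a median log2 fold change of -0.11, with 14 below 0, and 5 of them (21.7%) were lower at an unadjusted p of 0.05 or below, where 29.7% of all genes under 1 kb were lower. The 53 longer genes had a median of 0.11, with 40 above 0, and 8 of them (15.1%) were higher at that threshold, where 13.1% of all genes of 1 kb or more were higher. The shares of called members therefore lay under or close to those of all genes of the same length class. Across the 76 genes the fold change had a Pearson r of 0.27 (Spearman rho 0.32) with log2 transcript length and of -0.44 (rho -0.39) with mean log2 level, a description over genes that share 12 libraries. Over the 12724 genes tested that have a length, the same values were 0.20 (rho 0.22) and -0.20 (rho -0.26). Among all genes the 698 under 1 kb had a median of -0.24 and the 12026 longer ones 0.025. Within a library, the mean log2 level of the longer members minus that of the shorter ones was 0.039 ± 0.17 (SD of 5 mice) in WT and 0.27 ± 0.049 (SD of 7 mice) in *Chd8L*+/- libraries, and the ranges overlapped through WT replicate 2 (0.30) alone. The other 4 WT libraries lay between -0.10 and 0.11, below all 7 *Chd8L*+/- libraries (0.21 to 0.33). After each library was corrected for trends on length and GC content, the median of the 76 genes was 0.15, with 51 above 0, and 0 of 76 passed an adjusted p of 0.05 in limma (background 0.0236%), while 18 were higher (23.7%, background 11.3%) and 1 lower (1.32%, background 12.5%) at an unadjusted p of 0.05 or below. The correlation with length was then -0.15. With that correction and without WT replicate 2, 20 of the 76 were higher (26.3%, background 13.2%) and 1, *Mrps21*, was lower (1.32%, background 15.5%) at an adjusted p of 0.05 or less.

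**Figure D4:**
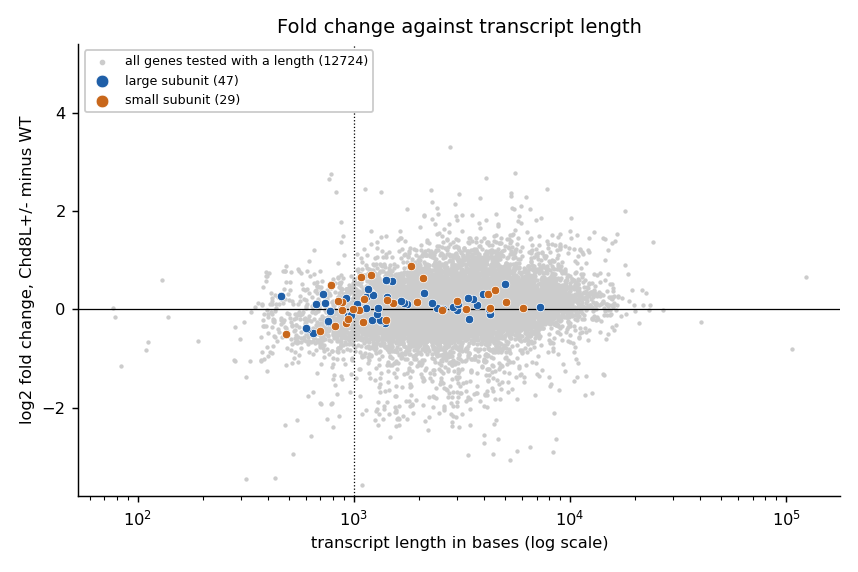
Log2 fold change against transcript length (log scale) for the 47 large and 29 small subunit genes over all 12724 genes tested with a length (grey), with a dotted line at 1 kb. Members under 1 kb reach -0.49 and have a median of -0.11, and longer members have a median of 0.11.

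Per kilobase of annotated transcript, the highest levels belonged to genes with short transcripts. This measure divides the count by the annotated length, so it favours short genes by construction. *Mrps21* had 1817 normalised counts per kilobase over all 12 libraries, followed in the large subunit by *Mrpl34* with 1125 and *Mrpl42* with 936, and in the small subunit by *Mrps36* with 868. The lowest levels per kilobase were 58.3 for *Mrps17*, 60.4 for *Mrpl19*, 61.0 for *Mrps25* and 68.7 for *Mrpl17*, all genes with an annotated transcript of 5000 bases or more, which need not be the one expressed. An annotated gene overlaps 34 of the 76 on the opposite strand and 11 on the same strand, so counts of such genes are uncertain where the counting ignored strand or split reads. The median per kilobase was 328 for large and 227 for small subunit genes. *Mrpl42*, *Mrps17*, *Mrps25* and *Mrpl17* had log2 fold changes between 0.026 and 0.14.

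Proteins of the mitoribosome under other symbols had log2 fold changes between -0.32 and 0.65 over 6 genes. *Ptcd3*, a pentatricopeptide repeat protein of the small subunit, had 414 ± 215 (SD of 5 mice) normalised counts in WT and 601 ± 140 (SD of 7 mice) in *Chd8L*+/- libraries, giving a log2 fold change of 0.65 (SE 0.27, adjusted p = 0.165). *Aurkaip1*, a small protein of the small subunit, had 1028 ± 146 (SD of 5 mice) and 820 ± 57.9 (SD of 7 mice), giving a log2 fold change of -0.32 (SE 0.11, adjusted p = 0.127). *Dap3*, a GTP-binding protein of the small subunit, had 771 ± 122 (SD of 5 mice) and 820 ± 124 (SD of 7 mice), giving a log2 fold change of 0.090 (SE 0.13). The remaining proteins were *Gadd45gip1* of the large subunit (0.34), *Oxa1l*, the membrane insertase to which the ribosome docks (0.18), and *Chchd1* of the small subunit (-0.19). None of these 6 passed an adjusted p of 0.05 in limma. At an unadjusted p of 0.05 or below 1 was higher (16.7%, background 12.5%) and 1 lower (16.7%, background 11.8%). Without WT replicate 2, *Ptcd3* (0.90, adjusted p = 0.0110) and *Aurkaip1* (-0.39, adjusted p = 0.0153) passed in limma. In that fit 14% of all genes were higher and 13.6% lower.

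The genes that serve the mitoribosome had higher list medians than the ribosomal proteins themselves, and those for oxidative phosphorylation a lower one. Of 20 mitochondrial aminoacyl-tRNA synthetases and amidotransferase subunits, which charge mitochondrial tRNAs, 19 had a log2 fold change above 0, with a list median of 0.54. At an unadjusted p of 0.05 or below 14 were higher (background 12.5%) and 1 lower, and 0 passed an adjusted p of 0.05, in limma. Without WT replicate 2 the list median was 0.69 and 14 passed, all higher, where 14% of all genes were higher. *Aars2* had 115 ± 43.9 (SD of 5 mice) normalised counts in WT and 193 ± 39.9 (SD of 7 mice) in *Chd8L*+/- libraries, giving a log2 fold change of 0.80 (adjusted p = 0.121 from limma). *Vars2* (225 ± 126 and 359 ± 69.1, log2 fold change 0.80) and *Mars2* (90.9 ± 47.3 and 151 ± 21.4, log2 fold change 0.85) were alike in size. The exception was *Lars2*, at 16312 ± 7473 (SD of 5 mice) and 9772 ± 3428 (SD of 7 mice), giving a log2 fold change of -0.71. The next most abundant synthetase, *Iars2*, had 803 ± 190 (SD of 5 mice) in WT.

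Of 17 genes for mitochondrial DNA replication and transcription, 15 lay above 0, with a list median of 0.43 and 8 higher at an unadjusted p of 0.05 or below (47.1% of the list, background 12.5%). *Polrmt*, the mitochondrial RNA polymerase, had a log2 fold change of 0.47, and *Twnk*, the replicative helicase, one of 0.59. Of 22 assembly factors 18 lay above 0, with a median of 0.34, 5 of the list higher (22.7%, background 12.5%) and 0 lower at an unadjusted p of 0.05 or below. The genes above 0 included *Fastkd2* (0.88) and the ribosomal RNA methyltransferase *Mrm3* (1.07). Of 12 translation factors 10 lay above 0, with a median of 0.16 and 3 higher at that threshold (25.0%, background 12.5%). *Tufm*, the elongation factor that brings tRNAs to the ribosome, had 1281 ± 201 (SD of 5 mice) and 1394 ± 290 (SD of 7 mice), giving a log2 fold change of 0.11. No gene of these lists passed an adjusted p of 0.05 in limma with all libraries, and without WT replicate 2 there were 8, 7 and 3 such genes in the replication and transcription, assembly and translation factor lists, all higher. These were 47.1%, 31.8% and 25.0% of the lists, where 14% of all genes were higher, and the list medians were then 0.58, 0.47 and 0.24. The proliferation markers given above were higher in the same libraries, and their part was not tested. The regulators of these genes gave a median of 0.13 over 10 genes, with 8 above 0 and 2 below. The log2 fold changes were 0.72 for *Pprc1*, 0.30 for *Sp1*, 0.19 for *Gabpa*, 0.15 for *Gabpb1* and *Myc*, 0.12 for *Ppargc1b*, 0.081 for *Yy1*, 0.0030 for *Nrf1*, -0.26 for *Ppargc1a* and -0.45 for *Esrra*. At an unadjusted p of 0.05 or below 1, *Sp1*, was higher (10%, background 12.5%) and 1, *Esrra*, was lower (10%, background 11.8%). Of these regulators 0 passed an adjusted p of 0.05 in limma.

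The 77 nuclear genes for subunits of oxidative phosphorylation had a list median of -0.47, with 75 below 0, 59 lower (76.6%, background 11.8%) and 0 higher at an unadjusted p of 0.05 or below, and 0 past an adjusted p of 0.05 in limma. With all libraries kept, DESeq2 called 25 lower of the 80 such genes in the table (background 4.61%) and the fit with the library letter as a block called 5 lower (background 2.15%). Under quantile normalization the median was -0.33, with 24 lower at an unadjusted p of 0.05 or below (31.2%, background 10.4%). Without WT replicate 2 the median was -0.55 and 52 passed an adjusted p of 0.05 in limma, all lower (67.5%, where 13.6% of all genes were lower). The sign held on both sides of 1 kb, with medians of -0.56 over 44 shorter genes and -0.40 over 33 longer ones, whereas the ribosomal protein genes had -0.11 and 0.11. Within a library, the mean log2 level of the 76 ribosomal protein genes minus that of the 77 genes was -2.82 ± 0.36 (SD of 5 mice) in WT and -2.27 ± 0.11 (SD of 7 mice) in *Chd8L*+/- libraries. The WT values ran from -3.17 to -2.24 and the *Chd8L*+/- values from -2.46 to -2.14, so the groups overlapped through WT replicate 2, the highest WT library. The other 4 WT libraries reached -2.77 at most and lay below all 7 *Chd8L*+/- libraries. The 11 enterocyte markers had a median of -0.50, with 10 below 0, and a summed level of 406401 to 924050 normalised counts in WT and 337918 to 794021 in *Chd8L*+/- libraries. At an unadjusted p of 0.05 or below 2 of them were lower (18.2%, background 11.8%), and 0 passed an adjusted p of 0.05 in limma. Their median without that library was -0.76, all 11 lay below 0 and 3 passed (27.3%, where 13.6% of all genes were lower). The lowest WT sum belonged to replicate 2, and the other 4 WT libraries (from 837850) lay above all 7 *Chd8L*+/- libraries. Tuft cell markers, a rare chemosensory type, had a median of -1.87 over 8 genes, all 8 lower at an unadjusted p of 0.05 or below (background 11.8%) and 0 past an adjusted p of 0.05 in limma. Their median without WT replicate 2 was -2.38 and 7 of the 8 passed, all lower, where 13.6% of all genes were lower. By DCLK1 staining, the paper counted fewer tuft cells in the small intestine of *Chd8L*+/- mice and found no change in the colon. The part of the enterocyte and tuft cell markers in the fold changes of the mitochondrial genes was not tested.

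**Figure D5:**
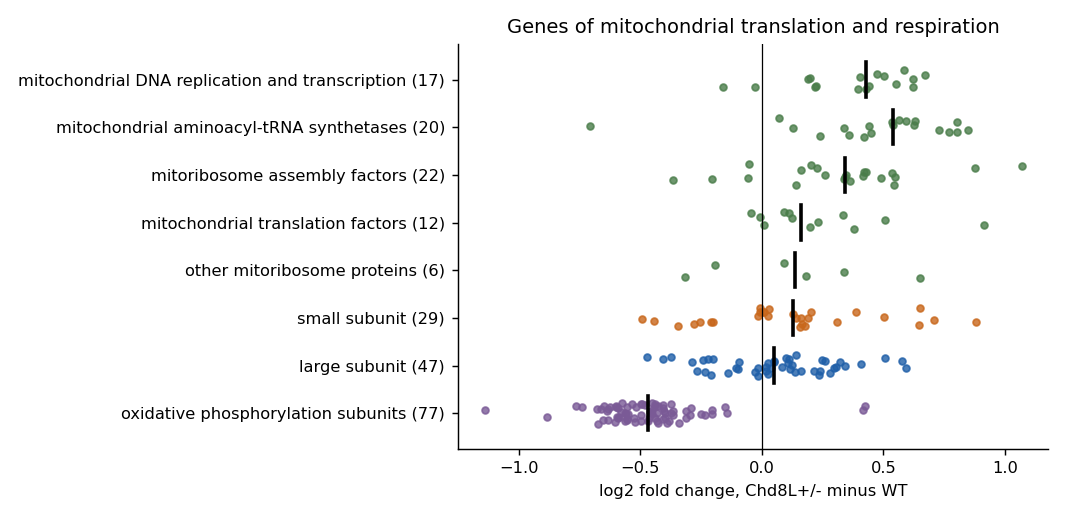
Log2 fold change of each gene (points) and list medians (black bars) for the large and small subunit, for other lists of mitochondrial gene expression and for subunits of oxidative phosphorylation, with the number of genes in brackets. Medians run from -0.47 for oxidative phosphorylation over 0.051 and 0.13 for the large and small subunit to 0.54 for the synthetases.

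For genes with head-to-head starts, the fold changes of both neighbours are given in 5 cases, chosen after values were seen. *Mrpl43* and *Twnk* start from overlapping ends on opposite strands of chromosome 19, and their log2 fold changes were -0.29 and 0.59. *Mrps12* and *Sars2*, a synthetase gene that starts 172 bases away, had 0.16 and 0.54. *Mrps27* and *Ptcd2* had 0.88 and 0.36, *Mrps18b* and *Ppp1r10*, 45 bases apart, had 0.65 and -0.15, and *Mrps18c* and *Helq*, 29 bases apart, had -0.35 and 0.34. By promoter letters, the 24 genes with an ETS match had a median of 0.0049 and the 43 without one 0.11. The 12 with a YY1 match had 0.11 and the 55 without one 0.028, and the 7 with an NRF1 core had 0.14 and the 60 without one 0.027. These are descriptions of the sets, and the differences were not tested.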

How the data were processed

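Poly(A) RNA of gut epithelial cells from 5 WT and 7 *Chd8L*+/- mice was sequenced by the authors as 75-base single-end reads, mapped to mm10 with Tophat2 and analysed with DESeq2. What they deposited is a normalised signal, the reads on a gene over the size factor of its library. How reads were counted, with which annotation and whether by strand, is not given in the sources used here. Whole reads could be recovered for 100% of the values, to within 0.01 of a whole number. Of the 78 protein-coding genes with such symbols in GENCODE M21 (GRCm38), *Mrpl33* and *Mrpl53* were not analysed here. Transcript lengths are those of the longest annotated transcript of each gene in the basic set of that release, with protein-coding transcripts preferred. A gene with a long isoform that is little used may thus be classed as long.

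Genotypes were compared with limma 3.58.1 in R 4.3.3 (moderated statistics with an intensity trend), fitted to log2(value + 1) of the 12808 genes whose mean reached 10. The p-values were adjusted over all of them by the Benjamini-Hochberg method, at a threshold of 0.05. Fold changes on this scale understate changes of low genes. The libraries are of separate mice. The steps were tested on simulated data. The genes named were *Chd8*, the 5 lower and 3 higher genes with the smallest p in each subunit, the highest and lowest levels per kilobase, the S18 paralogs, *Mrps30*, *Mrpl12*, *Mrpl45*, *Mrps12* and mitoribosome proteins under other symbols. Members, lists and markers were chosen with earlier results of these data known. Cell type lists with no fold change in the report had these median log2 fold changes: epithelium -0.20, stem cell 0.48, goblet cell -0.29, Paneth cell -0.35, enteroendocrine cell -0.042, lymphocyte -0.22, myeloid 0.64, stroma 1.72 and erythroid 0.80. The 1 gene of the pancreatic acinar list in the table had -0.58.

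Alternatives were pseudocounts of 0.5 and 5, other filters, quantile normalization, count models of the recovered reads (DESeq2 1.42.0, edgeR 4.0.16), blocks for replicate number or for library letter, each library left out, and a correction for length and GC content (splines, 4 degrees of freedom). That correction without WT replicate 2, and subunits by structure under other scalings, were added after the values were seen.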

Additional observations from a re-analysis of the deposited data

Results flagged for a closer look

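Of 74 groups of 5 or 7 libraries tested for a value far from the rest, over the named genes and the subunit means, 3 stood out, and chance flags about 1 in 20 groups. In *Chd8L*+/- replicate 6, log2(normalised count + 1) of *Mrpl16* was 9.015, against 8.164 to 8.47 in the other 6 *Chd8L*+/- libraries. In the same library *Oxa1l* was at 10.26, against 9.617 to 9.809. This library also had the highest share of reads on the 76 genes (0.286%). In *Chd8L*+/- replicate 7 the mean log2 level of the large subunit genes minus that of the small subunit genes was 0.4391, against 0.3058 to 0.3501 in the others and 0.31 to 0.45 in WT.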

How the results depend on the processing

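The count of all genes past the threshold was 3, and 5 with edgeR, 811 with DESeq2, 451 with the library letter as a block, and 0 to 3533 with 1 library left out, where WT replicate 2 gave the highest count. The count of ribosomal protein genes was 0 in both directions under each alternative but those without WT replicate 2, where it was 5 lower and 9 higher (0 to 5 and 0 to 9 over the libraries left out), and 1 lower and 20 higher with the length and GC correction as well (3650 genes in all). The replicate numbers did not pair the libraries (r of deviations between -0.34 and 0.19). With the replicate block 0 genes passed, and the medians were -0.048 for the 76 genes and -0.066 for the large subunit. With 1 library left out these medians ran from -0.0033 to 0.16 and from -0.0057 to 0.16, below 0 without *Chd8L*+/- replicate 6 alone, and the large minus small difference ran from -0.081 to -0.00037. That difference was 0.016 under quantile normalization, 0.0078 with edgeR and 0.0052 with DESeq2.

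Genes near 0 changed direction. Under quantile normalization *Mrps25* was -0.0050, *Mrps30* -0.078 and *Mrpl58* -0.0050. With the recovered reads *Mrps18a* was 0.028 (edgeR) and 0.017 (DESeq2). With the replicate block *Mrpl42* was -0.066, *Mrpl17* -0.0067, *Mrps25* -0.070, *Mrps30* -0.10, *Mrpl45* -0.085, *Mrpl58* -0.16 and *Mrpl57* -0.11, and with the letter block *Mrpl45* was -0.022 and *Mrpl58* -0.011. With the length and GC correction *Mrpl17* was -0.11, *Mrps25* -0.11, *Mrps18a* 0.19, *Mrps30* -0.052, *Dap3* -0.012 and *Chchd1* 0.039, and without WT replicate 2 as well *Mrpl17* was -0.13, *Mrps25* -0.11, *Mrps18a* 0.22 and *Chchd1* 0.031. With 1 library left out *Mrpl17* ran from -0.066 to 0.11, *Mrpl42* from -0.0070 to 0.22, *Mrpl45* from -0.065 to 0.10, *Mrpl57* from -0.063 to 0.16, *Mrpl58* from -0.082 to 0.11, *Mrps18a* from -0.097 to 0.056, *Mrps25* from -0.059 to 0.094 and *Mrps30* from -0.077 to 0.095. The cause was not tested. The other genes chosen by the naming rule given under the processing kept their direction under every alternative. That rule does not cover genes named only in the other lists. Of the 10 regulators, 2 lay below 0 in the main fit and 3 under quantile normalization. The mean levels of the ribosomal protein genes ran from 135 to 1062, and the part of counting error in the spread between libraries was not tested.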
